A study of Danio rerio with 10 samples.

Results

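Fibronectin is a large extracellular matrix glycoprotein that cells lay down as fibrils after injury, and in zebrafish it is encoded by the paralogs *fn1a* and *fn1b*. Cells grip it through integrins, receptors built from 1 alpha and 1 beta subunit that also couple the matrix to the actin cytoskeleton. The alpha5 beta1 receptor recognizes the RGD motif of fibronectin and drives fibril assembly, the alphav receptors (with beta3 among their partners) bind the same motif in several ligands, and the alpha4 beta1 receptor, best known from leukocytes, binds another region of fibronectin as well as Vcam1. Fibronectin deposited by the epicardium and its receptors are known to take part in zebrafish heart regeneration. The 9 genes described here were taken by symbol: the ligands *fn1a* and *fn1b*, the alpha subunit genes *itga4*, *itga5* and *itgav*, and the beta subunit genes *itgb1a*, *itgb1b*, *itgb3a* and *itgb3b*. All 9 were listed in both expression tables, among 22202 genes in the fin table, 23511 in the ventricle table and 25029 in either.

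The libraries came from adult zebrafish, either *il11ra* mutants or wild-type siblings, where *il11ra* encodes the Interleukin-11 receptor. The mutants carried the CRISPR-Cas9 allele bns251 in all of their cells. Caudal fin tissue was taken 24 hours post amputation (hpa), with 3 libraries per genotype of 1 fin each. The paper's fin samples for expression analyses were the 2 bone segments just proximal to the cut, not whole fins. Whole cardiac ventricles were taken 96 hours post cryoinjury (hpci), with 2 libraries per genotype, each pooling 2 ventricles. Uninjured tissue was not analysed here, so every value is a level after injury and none is an induction. The comparisons ask how the transcriptome of an amputated fin and of a cryoinjured ventricle differs with loss of the receptor. The paper reports that mutants did not regrow amputated fins and kept a cardiac scar, so the genotypes also differ in regeneration.

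Values are normalized counts, that is, reads counted on a gene and divided by a size factor for the library, rounded to whole numbers. They are not divided by transcript length, so the levels of different genes are not compared, and the tables of the tissues were scaled separately, so levels are not compared across them. Normalized counts summed to between 3768621 and 3986121 in the fin libraries and between 10968602 and 13273996 in the ventricle libraries. The transcript of *il11ra* itself was at 65, 80 and 57 in wild-type fins against 3, 6 and 7 in mutant fins, and at 107 and 189 in wild-type ventricles against 38 and 23 in mutant ventricles, in the direction of the labels. Keratinocyte markers in the fins (5523 to 7666 summed over the list) and cardiomyocyte markers in the ventricles (214871 to 435426) were present in every library. Mutant ventricle replicate 1 stood apart from the other 3 ventricle libraries: thrombocyte markers summed to 2884 there and to between 621 and 924 in the others, leukocyte markers to 8616 there and to between 4977 and 5152 in the others, and cardiomyocyte markers to 214871 there and to between 339498 and 435426 in the others.

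In the fins both fibronectin genes were lower in the mutants. *fn1a* (ENSDARG00000019815, minus strand of GRCz11 chr9:15362300-15424639) was at 4559, 4021 and 3911 normalized counts in the 3 wild-type fins and at 2534, 2363 and 2701 in the 3 mutant fins. *fn1b* (ENSDARG00000006526, minus strand of chr1:5504128-5543065) was at 6719, 5353 and 5524 in wild-type fins and at 4245, 3136 and 3671 in mutant fins. For both genes the lowest wild-type fin lay above the highest mutant fin. The means of *fn1a* were 4164 ± 347 and 2533 ± 169 (SD, n = 3 per genotype), a log2 fold change of −0.72 (SE 0.097, 95% interval −0.94 to −0.49, adjusted p = 0.00178 by limma over 16741 genes). Those of *fn1b* were 5865 ± 744 and 3684 ± 555 (SD, n = 3 per genotype), a log2 fold change of −0.67 (SE 0.14, 95% interval −0.99 to −0.35, limma adjusted p = 0.00837). The falls of the paralogs were close in size, and each lay within the interval of the other. In bulk tissue, fewer cells of a type that expresses a gene and less RNA per cell cannot be told apart, which holds for every result here.

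Of the 9 genes, 7 were lower in mutant fins at an adjusted p under 0.05 and 0 were higher. Over all 16741 fin genes tested, 17.0% were lower and 19.6% were higher by the same rule (36.6% in either direction), so a called difference was common in this tissue. The same 7 genes were those whose genotypes did not overlap in the fins with mutants lower, an arrangement found for 26.8% of all genes. The median log2 fold change of the 9 genes was −0.72, against −0.014 over all genes tested. All 9 passed the filter of a mean of at least 10 normalized counts in both tissues.

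**Figure D1:**
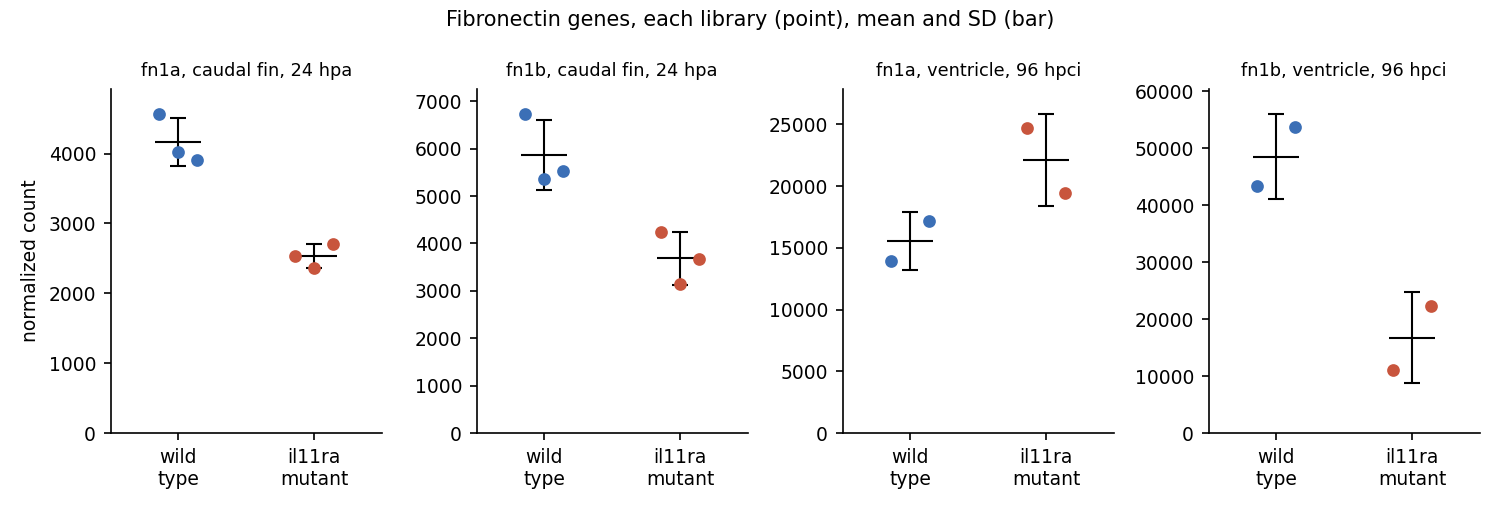
Normalized counts (vertical axes, each from 0) of *fn1a* and *fn1b* in caudal fins at 24 hpa (left) and ventricles at 96 hpci (right), with 1 point per library in blue for wild type and red for *il11ra* mutants, a horizontal bar at the mean and an error bar of 1 SD. In fins both genes are lower in mutants without overlap, whereas in ventricles *fn1a* lies higher in both mutant libraries (19449 and 24708) than in wild type and *fn1b* lies lower (11119 and 22405).

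In the ventricles the paralogs parted. *fn1b* was at 43357 and 53796 normalized counts in the wild-type libraries and at 11119 and 22405 in the mutant libraries. *fn1a* was at 13922 and 17190 in wild type and at 24708 and 19449 in mutants. Each mutant library was therefore below both wild-type libraries for *fn1b* and above both for *fn1a*. The log2 fold change of *fn1b* was −1.61 (SE 0.41, 95% interval −2.62 to −0.60), which is 3.06-fold lower by the means of the log2 values, with an unadjusted p of 0.00795 and an adjusted p of 0.522 by limma. The means of its counts were 48577 ± 7381 in wild type and 16762 ± 7980 in mutants (SD, n = 2 libraries per genotype). The log2 fold change of *fn1a* was 0.50 (SE 0.28, 95% interval −0.19 to 1.20, limma adjusted p = 0.809). Neither gene passed the adjusted threshold, and the log2 fold change of *fn1b* was −1.11 without mutant replicate 1 and −2.12 without mutant replicate 2.

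None of the 9 genes could be called in ventricles, where limma called 0 of 17411 genes (0.0%), with a smallest adjusted p of 0.0745. At an unadjusted p under 0.05, 638 genes (3.66%) were lower and 535 (3.07%) were higher (6.74% in either direction), and *fn1b* was the 1 member among them. Genotypes did not overlap for 4 of the 9 genes, with *fn1b* lower and *fn1a*, *itga4* and *itgav* higher in mutants, where 17.1% of all genes did not overlap with mutants lower and 18.2% with mutants higher. The median log2 fold change of the members in ventricles was 0.36, against 0.010 over all genes tested. That median is the value of *itgb1a* (SE 0.68), whose sign turned when single libraries were left out, as did those of *itgb3a* and *itgb3b*.

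The balance between the paralogs can be read within a library, where the size factor cancels. Because neither value is divided by transcript length, only the change of this ratio is read, not its absolute size. The fin ratio also has to be read with the range of the fin values, described below. The ratio of *fn1b* to *fn1a* came to 1.47, 1.33 and 1.41 in wild-type fins and 1.68, 1.33 and 1.36 in mutant fins, values that overlapped. Their log2 means differed by 0.042 (0.49 ± 0.074 in wild type and 0.53 ± 0.18 in mutants, SD, n = 3 each; two-sided exact permutation p = 0.9, where the smallest p possible is 0.1), a difference that turned to −0.065 without mutant fin replicate 1. In the ventricles the wild-type libraries had ratios of 3.11 and 3.13 and the mutant libraries 0.450 and 1.15. The log2 means there were 1.64 ± 0.0050 and −0.47 ± 0.96 (SD, n = 2 each), 4.34-fold lower in mutants, and the exact permutation p was 0.333, the smallest that 2 libraries against 2 allow. The log2 difference of −2.12 was −1.44 without mutant ventricle replicate 1 and −2.79 without mutant ventricle replicate 2. The summed counts of the paralogs were 9374 to 11278 in wild-type fins and 5499 to 6779 in mutant fins. In ventricles they were 57279 and 70986 in wild type against 35827 and 41854 in mutants. The sums did not overlap in either tissue, an order with mutants lower found for 26.8% of all genes in fins and 17.1% in ventricles. They were not tested. In ventricles only *fn1b* was lower, *fn1a* lay higher in both mutant libraries, and neither gene was called.

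**Figure D2:**
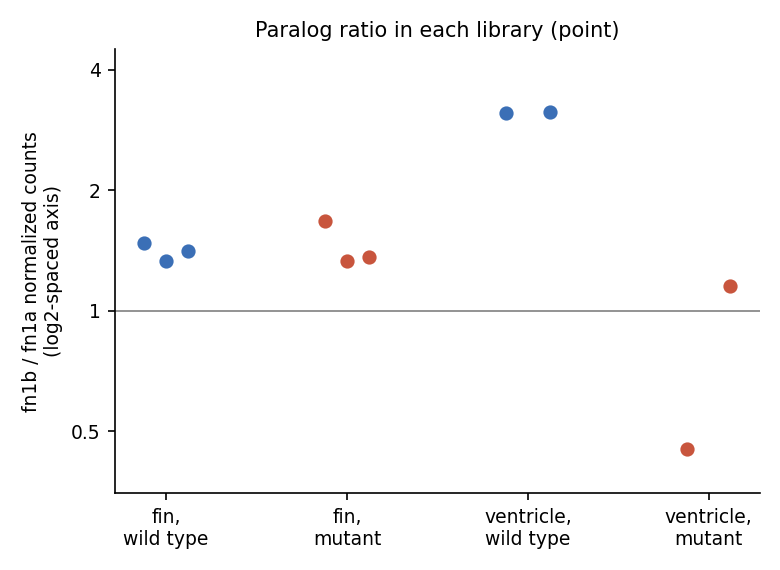
Ratio of *fn1b* to *fn1a* normalized counts (vertical axis, log2-spaced) in each of the 10 libraries, by tissue and genotype, with a grey line where the genes have equal counts. The fin libraries lie together between 1.33 and 1.68, the wild-type ventricles at 3.11 and 3.13, and the mutant ventricles at 0.450 and 1.15.

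Among the alpha subunits, the alpha5 and alpha4 genes were lower in mutant fins and the alphav gene was not called. *itga5* (ENSDARG00000006353, minus strand of chr23:33447625-33558161), the alpha chain of the main fibronectin receptor, was at 918, 1000 and 1018 in wild-type fins and at 515, 602 and 664 in mutant fins, with no overlap. Its log2 fold change of −0.73 (SE 0.11, 95% interval −0.97 to −0.48, limma adjusted p = 0.00230) was close in size to those of its ligands. *itga4* (ENSDARG00000103056, plus strand of chr9:44034790-44088067) had the largest fall of the 9 genes, from 106, 123 and 104 in wild-type fins to 44, 35 and 54 in mutant fins. Every mutant fin was below every wild-type fin, a log2 fold change of −1.32 (SE 0.20, 95% interval −1.78 to −0.86, limma adjusted p = 0.00264), or 2.50-fold. *itgav* (ENSDARG00000006314, minus strand of chr9:11597500-11655031), whose product pairs with several beta subunits, was at 1238, 1293 and 1317 in wild-type fins and at 1507, 1307 and 1411 in mutant fins. The genotypes overlapped, and the interval of its log2 fold change ran from −0.057 to 0.32 (limma adjusted p = 0.235), so a fall of the size seen for *itga5* lies outside it.

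Both beta1 genes among the members, *itgb1a* and *itgb1b*, were lower in mutant fins. The related *itgb1b.1* is given below with the other beta subunit genes. A further relative, *itgb1b.2*, overlapped between genotypes in the fins and was not called. Its log2 fold change was −0.15 (95% interval −0.56 to 0.27, limma adjusted p = 0.550). *itgb1a* (ENSDARG00000071863, minus strand of chr24:1110138-1151483), encoding the shared partner of alpha4 and alpha5, was at 498, 691 and 695 in wild type and at 215, 414 and 377 in mutants. Its log2 fold change was −0.94 (SE 0.25, 95% interval −1.51 to −0.38, limma adjusted p = 0.0204). *itgb1b* (ENSDARG00000104484, minus strand of chr2:43577294-43583896), its paralog, was at 566, 515 and 522 in wild type and at 414, 312 and 415 in mutants. The log2 fold change was −0.50 (SE 0.12, 95% interval −0.78 to −0.22, limma adjusted p = 0.0164). Genotypes did not overlap for either gene, with the highest mutant fin of *itgb1a* at 414 and its lowest wild-type fin at 498. These calls were near the threshold: the adjusted p of *itgb1a* was 0.0715 without wild-type fin replicate 2 and 0.0672 without replicate 3, and that of *itgb1b* was 0.0536 without wild-type fin replicate 1.

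Of the beta3 paralogs in the fins, 1 was called lower and 1 was not called. *itgb3b* (ENSDARG00000045070, plus strand of chr12:26434478-26461744), one of 2 zebrafish genes for the beta chain that pairs with alphav and with the thrombocyte subunit alphaIIb, was at 204, 260 and 182 in wild type and at 129, 91 and 143 in mutants. It was lower without overlap, with a log2 fold change of −0.84 (SE 0.20, 95% interval −1.30 to −0.38, limma adjusted p = 0.0147, or 0.0538 without wild-type fin replicate 2). *itgb3a* (ENSDARG00000056767, plus strand of chr3:19621034-19649535) was at 144, 214 and 177 in wild type and at 208, 178 and 222 in mutants. Its genotypes overlapped and its log2 fold change of 0.20 had an interval from −0.18 to 0.57 (limma adjusted p = 0.365). No test compared the paralogs with each other.

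In the ventricles the receptor genes showed no called change, and 3 of the 7 moved in sign with single libraries. *itga5* was at 3761 and 3434 in wild type and at 3471 and 3045 in mutants, which overlap (log2 fold change −0.14, SE 0.20). *itgb1b* was at 2324 and 3139 against 3651 and 2896, which also overlap (0.27, SE 0.24). *itga4* was at 69 and 141 in wild type and at 150 and 147 in mutants, and *itgav* at 993 and 1210 against 1554 and 1229, both with mutants higher by a small margin between the nearest libraries. The log2 fold changes were 0.58 for *itga4* (SE 0.36) and 0.33 for *itgav* (SE 0.21), with limma adjusted p of 0.825 and 0.835. With 1 library left out, that of *itga4* ran from 0.074 to 1.095.

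The remaining 3 receptor genes varied widely within a genotype in the ventricles. *itgb1a* was at 454 and 1843 in the wild-type libraries and at 820 and 1681 in the mutant libraries, so its spread within a genotype exceeded the difference between them (log2 fold change 0.36, SE 0.68). It turned to −0.65 without wild-type replicate 1 and to −0.16 without mutant replicate 2. *itgb3b* was at 292 and 408 in wild type and at 963 and 293 in mutants, and *itgb3a* at 18 and 46 against 79 and 26. The high value of both genes came from mutant replicate 1, in which the thrombocyte subunit gene *itga2b* was also high, at 1098 against 237 to 339 in the other 3 ventricle libraries. All 5 thrombocyte markers listed were highest in that library, and their part in the beta3 values was not tested. Without it the log2 fold changes turned from 0.62 to −0.24 for *itgb3b* and from 0.64 to −0.15 for *itgb3a*, and the latter also turned to −0.016 without wild-type replicate 1.

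**Figure D3:**
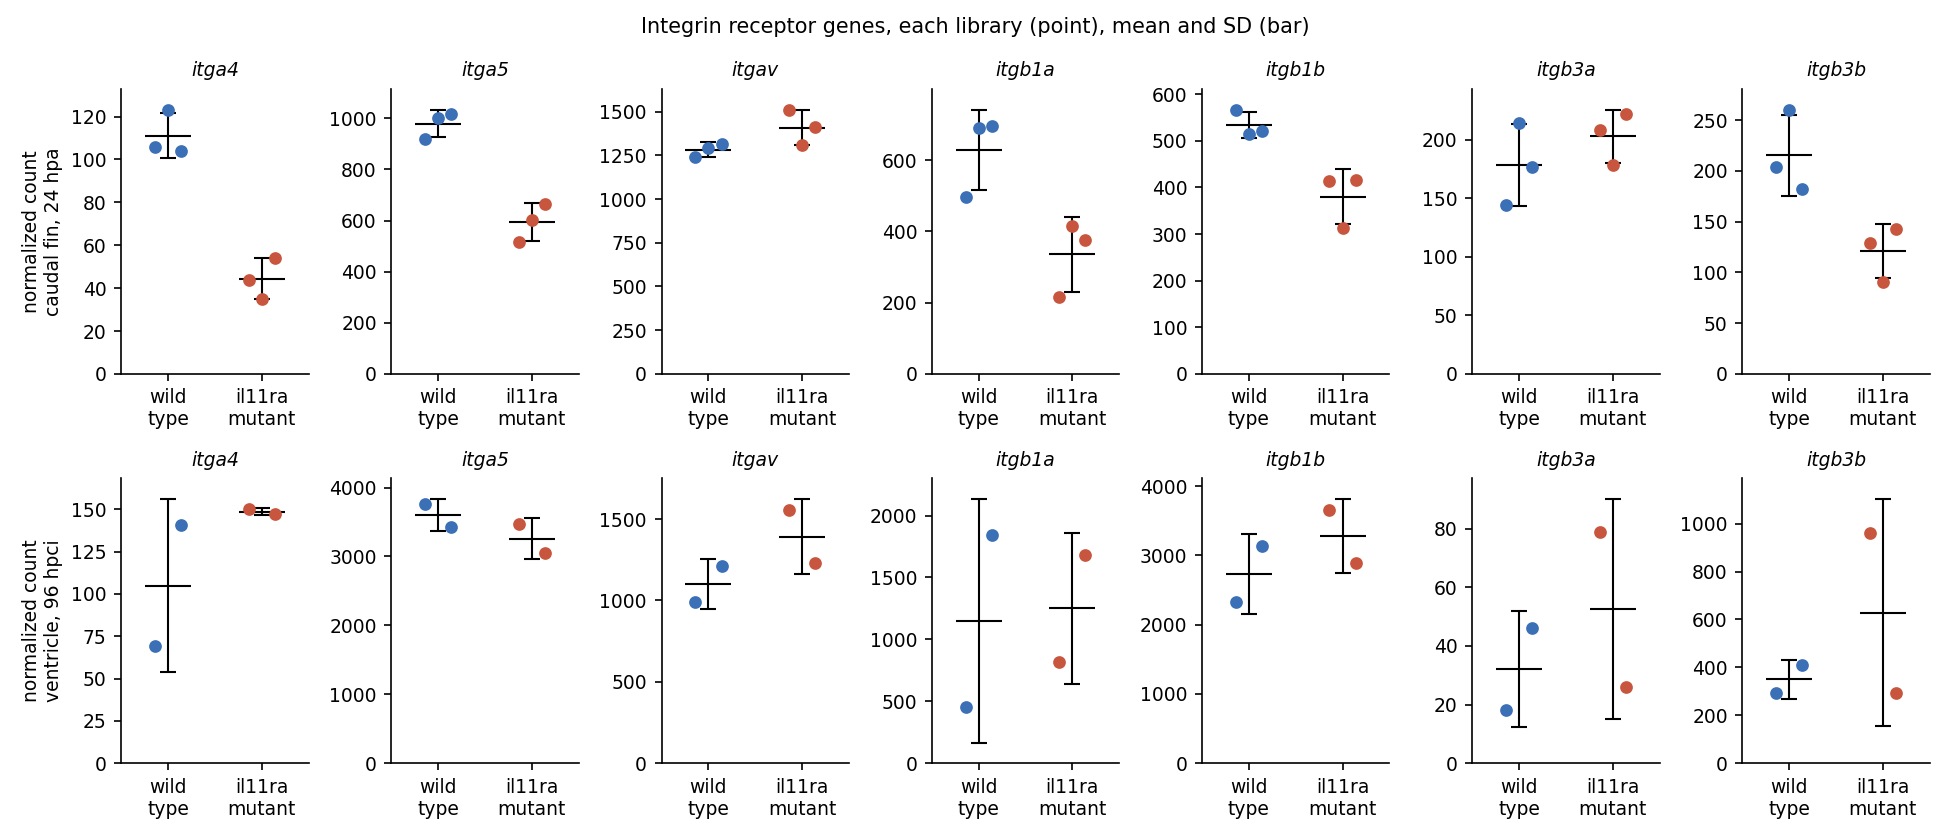
Normalized counts (vertical axes, each from 0) of the 7 integrin genes in caudal fins at 24 hpa (top) and ventricles at 96 hpci (bottom), with 1 point per library in blue for wild type and red for *il11ra* mutants, a horizontal bar at the mean and an error bar of 1 SD. In fins *itga4*, *itga5*, *itgb1a*, *itgb1b* and *itgb3b* lie lower in mutants without overlap, and in ventricles 1 mutant library stands high for *itgb3a* (79) and *itgb3b* (963).

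Whether the genotype effect differed between the tissues was tested directly, as the mutant minus wild-type difference in ventricles minus that in fins, over the 14520 genes tested in both. The residual variance of each gene was shared by the tissues in this fit. The SE of a difference can therefore be smaller than that of its ventricle part, which was 0.28 for *fn1a*. The effects of 2 of the 9 genes differed at an adjusted p under 0.05, where 14.1% of all genes did. For *fn1a*, lower in mutant fins and higher in both mutant ventricles, the difference was 1.22 on the log2 scale (SE 0.23, 95% interval 0.71 to 1.73, limma adjusted p = 0.0111). For *itga4*, which followed the same directions, it was 1.91 (SE 0.41, 95% interval 1.001 to 2.812, limma adjusted p = 0.0171). Those 2 calls held without any single library, with adjusted p from 0.00568 to 0.0496 for *fn1a* and from 0.0106 to 0.0497 for *itga4*. For *fn1b*, lower in both tissues, the difference was −0.94 (SE 0.39, adjusted p = 0.125 by limma). Those of *itga5* and *itgb1b* lay just short of the threshold, with 0.58 for *itga5* (SE 0.18, adjusted p = 0.0579 by limma) and 0.77 for *itgb1b* (SE 0.24, adjusted p = 0.0614 by limma). The differences of *itgb3b* (1.46, SE 0.59), *itgb1a* (1.30, SE 0.74), *itgb3a* (0.44, SE 0.65) and *itgav* (0.20, SE 0.19) were not called either. Without mutant ventricle replicate 2, 6 of the 9 genes were called, with *fn1b*, *itga5*, *itgb1b* and *itgb3b* added, and without wild-type ventricle replicate 2, 4 were, with *itgb1a* and *itgb1b* added. Tissue, injury and time after injury change together here, so their parts in these differences cannot be told apart.

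**Figure D4:**
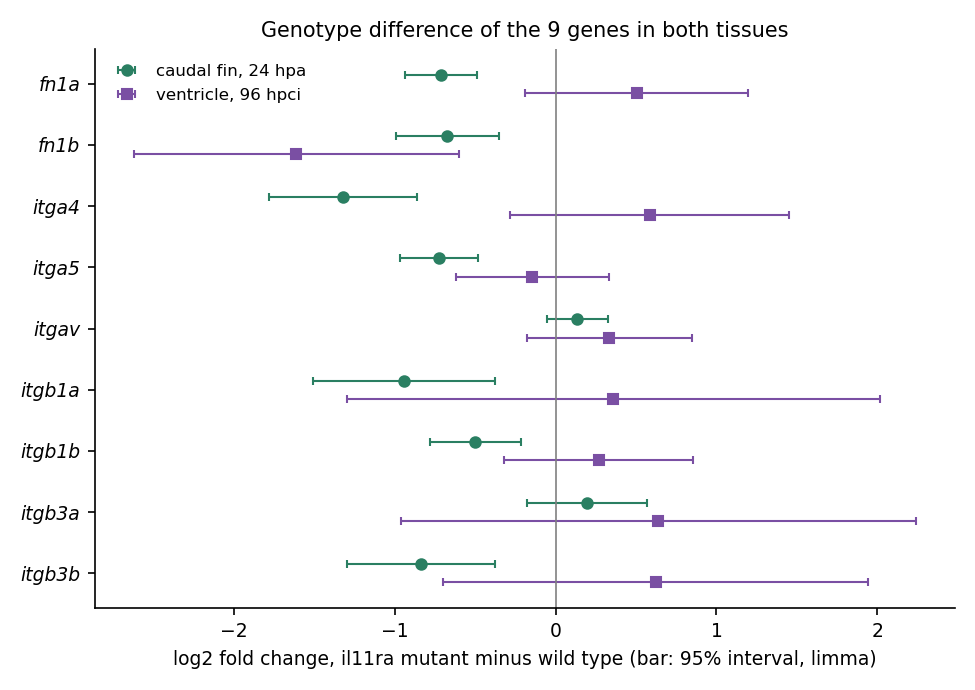
Log2 fold change of *il11ra* mutants against wild type (horizontal axis) for each of the 9 genes, as green circles for caudal fins and purple squares for ventricles, with bars for the 95% interval of limma's fit. In fins 7 intervals lie wholly below 0, from −1.32 for *itga4* to −0.50 for *itgb1b*, and in ventricles only that of *fn1b* (−1.61) excludes 0.

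The size of a change in the fins has to be read with the range of the fin table. The highest value of any gene in any fin library was the 6719 of *fn1b* in wild-type fin replicate 1, whereas the highest ventricle value was 600938, of the mitochondrial gene *mt-co1*. Mitochondrial genes numbered 0 in the fin table, and 29 were listed for the ventricles. The mean that 1 gene in 1000 exceeds was 24.5 times that of the median gene in fins and 798 times that of the median gene in ventricles. Fold changes in the fins became narrower with level, from an SD of 1.30 on the log2 scale over 2580 genes with means from 10 to 30, to 0.40 over 299 genes with means from 1000 to 3000 and 0.29 over the 6 genes at 3000 or more, of which *fn1a* and *fn1b* are 2. In the ventricles the same bins ran from 0.70 to 0.37, with no such narrowing above a level of 100. Of the 305 fin genes with a mean of 1000 or more, 8 (2.62%) had a log2 fold change beyond 1 in size, and none of the 6 highest did. Whether the highest fin values were limited during processing was not tested. The fold changes of *fn1a* and *fn1b* in fins, their ratio there, and the differences from ventricles are given as the table holds them. *itga4*, with a mean of 77.7 in fins, lay in the bin from 30 to 100, where the SD was 1.07 over 4035 genes. The order of the members by fold change in fins has to be read with their level.

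**Figure D5:**
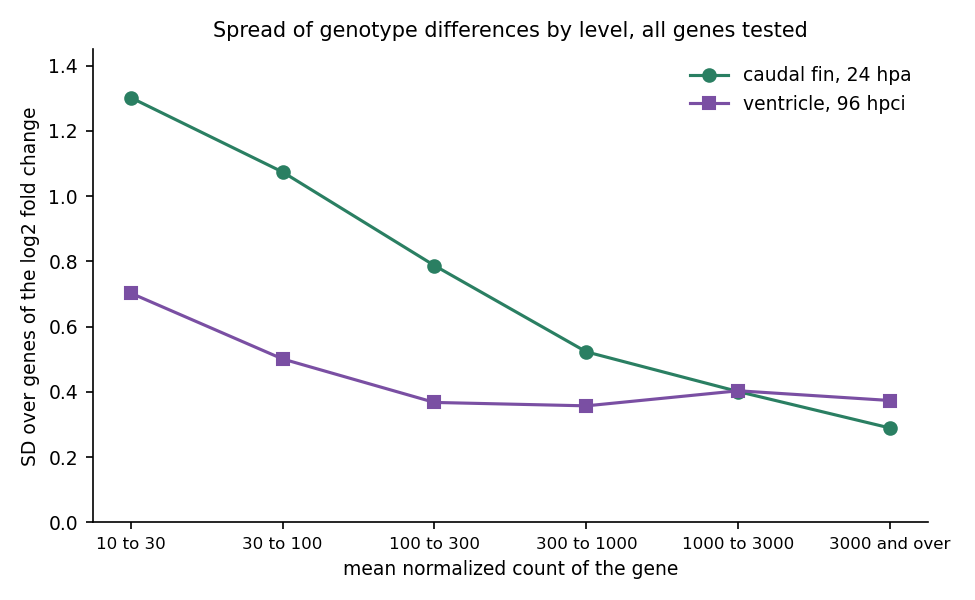
SD over genes of the log2 fold change between genotypes (vertical axis, from 0) in 6 bins of mean normalized count (horizontal axis), for all genes tested in caudal fins (green circles) and ventricles (purple squares). In fins the SD falls at each step, from 1.30 to 0.29, and in ventricles it lies between 0.36 and 0.40 in all bins from 100 upward.

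Of 16 other alpha subunit genes tested in fins, 6 fell, 1 rose and 9 were not called, with a median log2 fold change of −0.30, where 17.0% of all fin genes fell and 19.6% rose by the same rule. The largest falls were those of *itga11a*, whose product is a collagen receptor in mammals (48, 63 and 33 in wild type, 13, 17 and 9 in mutants, log2 fold change −1.80, limma adjusted p = 0.00656), and of *itga9*, encoding a tenascin and fibronectin EDA receptor chain closely related to alpha4 (58, 91 and 66 against 17, 16 and 33, −1.71, adjusted p = 0.00633). The third, *itga2.1*, went from 20, 22 and 9 to 4, 5 and 5 (−1.58, limma adjusted p = 0.0280, or 0.0623 without mutant fin replicate 1), at counts where a few reads matter. The gene that rose was *itgae.1*, at 65, 40 and 53 in wild-type fins and at 354, 326 and 59 in mutant fins. The values of *itgae.1* overlapped between genotypes, and its log2 fold change of 1.86 had an adjusted p of 0.0468 by limma, a call lost in 5 of the 6 fits that leave out 1 fin (adjusted p up to 0.134) and kept without mutant fin replicate 3, at 2.69.

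Of 8 other beta subunit genes tested in fins, 2 fell, 3 rose and 3 were not called, beside 17.0% lower and 19.6% higher over all fin genes. The leukocyte beta genes *itgb2* and *itgb7* rose, *itgb2* from 401, 403 and 344 in wild type to 507, 643 and 571 in mutants (log2 fold change 0.58, limma adjusted p = 0.00663) and *itgb7* from 199, 242 and 186 to 260, 333 and 262 (0.44, adjusted p = 0.0407). The alpha4 chain pairs with beta7 as well as beta1, and *itga4* moved the other way. *itgbl1*, which encodes an integrin beta-like protein, rose from 60, 70 and 51 to 152, 153 and 105 (1.16, adjusted p = 0.00451). The falls were those of *itgb1b.1* (−0.51, adjusted p = 0.0241) and of the epithelial *itgb6* (−0.46, adjusted p = 0.0339). The call of *itgb7* was lost without wild-type fin replicate 1, without replicate 3, and without mutant replicate 2 or 3 (adjusted p 0.0605 to 0.126). The calls of *itgb1b.1* and *itgb6* were lost in 4 and 5 of the 6 fits that leave out 1 fin.

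Markers of leukocytes moved with genotype in the fins. Over all fin genes tested, 17.0% were called lower and 19.6% higher, and each count of called fin markers here is read beside those shares. All 5 of 5 leukocyte markers rose, and their summed level was 1587 to 1932 in wild type and 3626 to 4370 in mutants. The neutrophil marker *mpx* went from 212 to 319 in wild type to 987 to 1408 in mutants. Thrombocyte markers summed to 125 to 185 in wild-type and 138 to 207 in mutant fins, mostly from *fermt3b*, and *itga2b* was at 1 to 9 in all fins. Fibroblast and blastema markers summed to 8035 to 8810 in wild type and to 6083 to 6485 in mutants. Of these 6 genes, 3 were called lower and 1 higher. Most of the sum came from *col1a2* and *col5a1*, which with *pdgfra* were called lower. Of the *msx* genes, *msx2b* was called higher (adjusted p = 0.0450 by limma) and *msx1b* and *msx3* were not called. Of 4 tested osteoblast markers, 3 fell. The osteoblast sums overlapped between genotypes, at 925 to 1131 in wild type and 601 to 962 in mutants. Most of each sum came from *col10a1a*, which was not called (706, 773 and 680 in wild type, 866, 483 and 632 in mutants, limma adjusted p = 0.521). The cardiac troponin gene *tnnt2a* was at 57 to 74 in wild-type fins and at 0 to 6 in mutant fins. In ventricles the fibroblast and blastema list summed to 24073 and 27294 in wild type and to 38283 and 38602 in mutants. Most of that sum came from the collagen genes *col1a2* (14805 and 16344 against 21843 and 22985) and *col5a1* (8633 and 10183 against 15982 and 14850). The values of *pdgfra* overlapped, at 628 and 760 in wild type against 445 and 752 in mutants. The epicardial list summed to 873 and 988 against 862 and 1300, with members on either side. *wt1b* (264 and 254 in wild type against 82 and 165 in mutants) and *wt1a* (120 and 119 against 64 and 106) lay lower without overlap. *tcf21* (146 and 231 against 253 and 412) and *tbx18* (343 and 384 against 463 and 617) lay higher without overlap. None of these genes was called. The part of cell makeup in the values of the 9 genes was not tested.

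Of 13 other ligands of these integrins tested in fins, 2 fell, 6 rose and 5 were not called, with a median log2 fold change of 0.33. The share that fell was near the 17.0% of all fin genes, and 19.6% of all fin genes rose. Those that fell were *tnc*, encoding the matrix protein tenascin C (3043, 2826 and 2734 in wild type, 920, 1405 and 1329 in mutants, log2 fold change −1.26, limma adjusted p = 0.00129), and *thbs1b*, encoding a thrombospondin (1081, 1087 and 1123 against 597, 535 and 521, −0.99, adjusted p = 0.000344). Those with the largest rises were *mfge8b*, encoding a milk fat globule protein that binds alphav integrins in mammals (126, 261 and 138 against 557, 430 and 343, 1.39, adjusted p = 0.00809), and the matricellular genes *ccn2a* (160, 202 and 194 against 529, 344 and 528, 1.31, adjusted p = 0.00186) and *ccn2b* (1.24, adjusted p = 0.0233). The call of *ccn2b* was lost in 4 of the 6 fits that leave out 1 fin.

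Of 16 genes of the machinery that couples integrins to actin and kinases, 4 fell, 3 rose and 9 were not called in fins, with a median log2 fold change of −0.084. Over all fin genes 36.6% were called in either direction, so calls among the coupling genes were near the background. *ptk2aa*, a focal adhesion kinase gene, had the largest fall, from 267, 367 and 331 in wild type to 116, 104 and 144 in mutants (log2 fold change −1.40, limma adjusted p = 0.00103). *src*, whose kinase acts with focal adhesion kinase, went from 159, 215 and 156 to 81, 93 and 105 (−0.91, adjusted p = 0.00564), and *parvab*, a parvin gene, had −0.92 (adjusted p = 0.0247). The related kinase gene *ptk2ba* rose from 82, 104 and 88 to 155, 171 and 154 (0.81, adjusted p = 0.00406), as did *ptk2bb* (0.48, adjusted p = 0.0268) and the adaptor gene *nck2b* (0.43, adjusted p = 0.0331). The calls of *parvab*, *ptk2bb* and *nck2b* each depended on single fins, and *nck2b* was called in 1 of the 6 fits that leave one out.

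Of the genes for fibronectin co-receptors, cross-linkers and the plasmin system that degrades it, *plaub*, a urokinase-type plasminogen activator gene, rose in the fins from 173, 144 and 139 in wild type to 231, 280 and 234 in mutants (log2 fold change 0.71, limma adjusted p = 0.00546). Its paralog *plaua* was not called (100, 161 and 106 against 167, 185 and 156, 0.50, adjusted p = 0.0734). The median of the list was 0.14, and 19.6% of all fin genes were called higher.

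In the ventricles 0 genes of these 5 lists were called. The list of other ligands had the highest median, 0.79 against 0.010 over all genes tested, with 8 of 13 genes higher in mutants without overlap (18.2% of all genes) and 7 of 13 higher at an unadjusted p under 0.05 (3.07% of all genes). Examples chosen after their values were seen were the periostin gene *postna* (2028 and 3490 in wild type, 6597 and 6363 in mutants, log2 fold change 1.28, limma adjusted p = 0.451) and *thbs1a* (3017 and 3282 against 8361 and 6031, 1.17, adjusted p = 0.382). Not all lay higher, as *vcam1b*, whose product binds alpha4 beta1, had lower values in both mutants (1744 and 2020 against 1697 and 1529, −0.22, adjusted p = 0.880). The medians of the other lists were 0.29 for the alpha genes, 0.22 for the beta genes, 0.20 for the coupling genes and 0.37 for the co-receptor, cross-linker and plasmin genes.

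The genes with the most similar pattern over the 10 libraries were found by the root mean square difference of log2 values, each gene centred within each tissue, among 14519 other genes. For *fn1a* these were *cse1l* (0.079), *slc31a1* (0.080), *dnaja1* (0.082), *UBA6* (0.086) and *BX284638.2* (0.097). All 5 were lower in mutant fins and higher in mutant ventricles by their log2 fold changes, for example −0.62 and 0.30 for *cse1l*. Genes were chosen for likeness over the same libraries, so shared directions follow from the choice, here and for *fn1b*. For *fn1b* the nearest were *paplna* (0.21), *urm1* (0.22), *mvp* (0.23), *asap3* (0.23) and *lipcb* (0.26), with log2 fold changes in ventricles from −1.92 for *urm1* to −1.48 for *mvp* and *paplna*. The distance between *fn1a* and *fn1b* was 0.74, which placed *fn1b* at rank 12815 by likeness to *fn1a* and *fn1a* at rank 9389 by likeness to *fn1b*.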

How the data were processed

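RNA-seq of adult zebrafish was analysed from 1 deposited table per tissue, with genotype, tissue, time and replicate number from the labels. The authors prepared stranded mRNA libraries and sequenced them as single-end reads. The submitters' processing notes name Trimmomatic 0.39, STAR 2.7.3a, featureCounts 1.6.5, DESeq2 1.26 and the build GRCz11, and the strand setting of the counting is not given in the sources used here. Each deposited value is a gene-level signal: the authors scaled read counts by library size factors, computed tissue by tissue, and rounded to whole numbers, so no count model was used. In the annotation of the tables *fn1b* overlaps *atic*, on the other strand, by 3 bases.

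The log2 of the value plus 1 was fitted with limma 3.58.1 in R 4.3.3 for genes with a mean of at least 10 in a tissue, mutant against wild type, with empirical Bayes moderation and a mean-variance trend. The fit was run on simulated counts with a common dispersion per tissue, which cannot show how it performs on the spread of these libraries. P-values are two-sided and adjusted by the Benjamini-Hochberg method over all genes tested, with a threshold of 0.05. Fold changes are on the scale of the log2 of the value plus 1, which understates changes of low genes. The difference between tissues was fitted over all 10 libraries with 1 mean per tissue and genotype and a residual variance per gene shared by the tissues. Fins come from separate animals and ventricle libraries from pools of 2, and p-values measure only the spread between these libraries. The gene ID matched the members between tables. Tables were handled in Python 3.11.15 with pandas 2.3.3, and figures drawn with matplotlib 3.10.9.

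The members and the gene lists were chosen with earlier results of these data known. Named in the text were all 9 members, up to 3 called genes each way per list and tissue, and the 5 genes most like each fibronectin gene. The uncalled *itgb1b.2* was named as a relative of *itgb1b*. A gene of these lists is not reported here. Marker genes and the ventricle ligands named beside these were chosen after their values were seen. Alternatives were pseudocounts of 0.1 and 10, no filter or a mean of at least 50, upper-quartile or TMM scaling, robust moderation, a replicate block, array weights and leaving out each library. No nucleotide or protein sequences were used here.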

Additional observations from a re-analysis of the deposited data

Results flagged for a closer look

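The genotype effect of *fn1a* differed between the tissues by a test of the difference itself, with a log2 fold change of −0.72 in fins and 0.50 in ventricles and a difference of 1.22 (limma adjusted p = 0.0111). That of *itga4* differed likewise, with −1.32 in fins and 0.58 in ventricles and a difference of 1.91 (limma adjusted p = 0.0171). *fn1a* was lower in 3 of 3 mutant fins than in any wild-type fin and higher in 2 of 2 mutant ventricles than in any wild-type ventricle, and *itga4* followed the same order. The ventricle effect of each gene on its own did not pass the threshold. With 1 ventricle library left out, the ventricle log2 fold change ran from 0.074 to 1.095 for *itga4* and from 0.33 to 0.68 for *fn1a*.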

How the results depend on the processing

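The count of 7 members called lower in fins was the same under all 8 other settings (pseudocounts, filters, scalings, robust moderation and block) and ran from 5 to 7 when 1 fin was left out, with 0 higher in all of these. In ventricles 0 members were called in all 13 alternatives, and the log2 fold change of *fn1b* ran from −2.12 to −1.11 with 1 library left out. With 1 fin left out, genes called lower in fins ran from 1656 to 2524 (2853 with all fins, 1656 without wild-type replicate 2), list genes called lower from 8 to 13 (14 with all) and list genes called higher from 9 to 14 (15 with all). The tissue difference was called for 716 to 3100 genes with 1 library left out and for 1142 with array weights per tissue, against 2041, and for 2 to 6 members, against 2. Signs turned with 1 library left out in ventricles for *itgb3a* (−0.15 to 1.42), *itgb3b* (−0.24 to 1.48) and *itgb1a* (−0.65 to 1.37), for the tissue difference of *itgb3a* (−0.34 to 1.23) and for the paralog ratio in fins, whose difference ran from −0.065 to 0.10. The cause of these turns was not tested.

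The labels number the replicates alike in both genotypes. Over 16741 genes the deviations of same-numbered fins correlated at 0.033, 0.090 and −0.084, and those of other pairs at −0.113 to 0.0862. Whether same-numbered fins were handled together cannot be told from these correlations. With the replicate number as a block, 5703 fin genes were called against 6132, among them all 7 members, and the calls of *itga2.1* and *nck2b* were lost (adjusted p = 0.0511 and 0.0659 by limma). In ventricles the block and the crossed pairing, chosen after seeing the data because same-numbered libraries correlated at −0.19, both called 0 genes. Calls were also lost for *itgae.1* with robust moderation (adjusted p = 0.0944 by limma) and for *itgb7* with upper-quartile factors (adjusted p = 0.0534 by limma). With 2 libraries per genotype, ventricle differences of the size of *fn1a* (0.50, SE 0.28) could not be told from the spread.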
